A study of Mus musculus with 18 samples.

Results

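The 33 genes described here encode enzymes that break down or interconvert tyrosine, arginine, creatine precursors, proline, glutamate, glutamine, lysine, methylated glycines, sulfur amino acids and glycine. They were chosen by name from these pathways, with no threshold on a measured value but with earlier results of these data known, and all 33 were found among the 24062 genes of the deposited table. A total of 32 passed the filter on low values (a level of 1 CPM, that is counts scaled to the library total, reached by 3 or more libraries), and Ass1 did not. They are kept in 9 groups by the step they carry out.

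The kidney filters free amino acids and the proximal tubule takes nearly all of them back. Its cells are also a site of amino acid chemistry of their own: they make arginine from citrulline, guanidinoacetate (the precursor of creatine) from arginine and glycine, serine from glycine, and ammonia from glutamine, and they oxidise D-amino acids, proline, hydroxyproline, lysine and sarcosine in mitochondria and peroxisomes. Several of these enzymes are otherwise known mainly from liver.

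The study measured RNA from kidney cortex of C57Bl/6 mice by total RNA sequencing, in 6 groups of 3 libraries each. Mice labelled Klf6fl/fl, with floxed alleles of the transcription factor Krüppel-like factor 6, and mice labelled Klf6PTKO, a proximal tubule knockout of the same gene, received the vehicle DMSO or AAI (aristolochic acid I, a plant nephrotoxin that injures the proximal tubule). Cortex was sampled after 3 weeks of AAI, or after 3 weeks of AAI and a further 3 weeks of remodeling without it (the 6-week groups). All AAI groups are set against DMSO groups whose sampling time, like the Cre driver, age and sex of the mice, is not given in the sources used here. The labels do not say that the 3 libraries of a group came from separate animals, so a p-value reflects how far these libraries differ among themselves, which may be technical. The comparisons ask how AAI altered these enzymes, how far they returned during remodeling, and whether the genotype label altered either.

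Libraries held 11722625 to 27213219 reads. The Klf6 RNA level did not separate the genotype labels. It lay between 39.2 and 42.3 CPM in fl/fl DMSO libraries and between 40.2 and 56.7 CPM in PTKO DMSO libraries. After 3 weeks of AAI it lay between 256 and 308 CPM in fl/fl and between 229 and 310 CPM in PTKO libraries. Gene-level values of bulk cortex do not show deleted exons, so this level does not check the genotype label. The groups are called here by their labels, and directions between them refer to those labels. Marker lists were used to describe the tissue. All 20 markers of the S1 and S2 segments of the proximal tubule and all 14 of the straight S3 segment were detected. Their summed levels were 57824 to 64021 CPM and 12230 to 15421 CPM over the 6 DMSO libraries. Detecting them cannot tell cortex from other kidney samples that hold proximal tubule, so it does not check the cortex label. The PTKO DMSO library 2 and the PTKO 6-week library 2 held 98.7 and 435 CPM of 7 adipocyte markers against 24.7 to 45.2 CPM elsewhere, and the fl/fl 6-week library 2 was the shallowest and the least changed of its group. These are the 3 libraries that stand apart in later fits. The PTKO 6-week library 3 was not among them, though its markers also differed from those of its group. Its S3 markers summed to 1734 CPM, against 4933 and 4420 CPM in libraries 1 and 2. Its thick ascending limb markers summed to 14666 CPM, against 8657 and 6495 CPM, and its fibroblast markers to 232 CPM, against 789 and 934 CPM. In bulk tissue, fewer cells of a type and less RNA per cell cannot be told apart.

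Under DMSO most of these enzymes were well expressed in both genotypes, with a median log2 difference of 0.02 between them. Per kilobase of the longest coding transcript in fl/fl DMSO cortex, Gatm had the highest level (543 CPM per kb), followed by Fah (367), Hgd (338) and Aadat (331). Ftcd (5.76), Arg2 (1.97), Ass1 (0.510) and Pycr1 (0.0711) were listed lowest, and the Ass1 value is taken up below. Their summed level was 11058 to 12218 CPM over the 6 DMSO libraries. In the limma fit on log2(CPM + 1), with Benjamini-Hochberg adjustment over 14604 genes, no enzyme differed between PTKO and fl/fl DMSO cortex. The smallest adjusted p was 0.392, for Gcsh, 1 enzyme had an unadjusted p under 0.05, and edgeR and DESeq2 on recovered reads called 0 as well. Of all genes tested, 0.0959% were called lower and 0.192% higher in PTKO DMSO cortex. Without a call, the 3 PTKO DMSO libraries lay above all 3 fl/fl ones for Dao, Prodh, Aldh4a1, Glud1, Cbs and Gcsh and below them for Prodh2, or 6 and 1 enzymes, and 7.04% and 9.44% of all genes were apart in the same way.

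**Figure D1:**
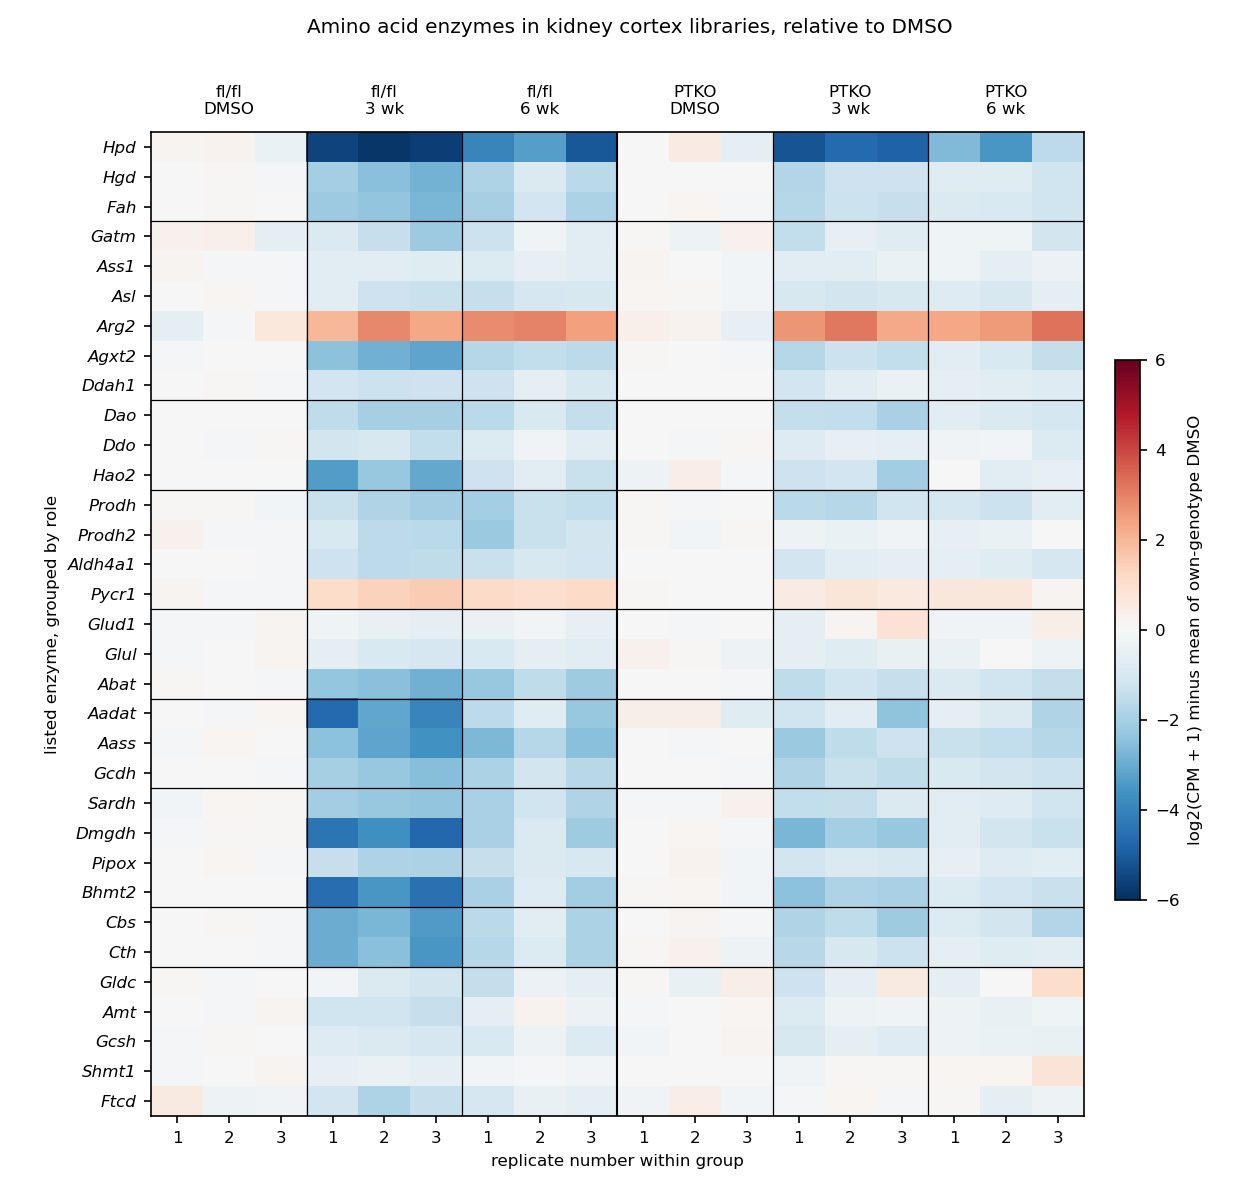
Heat map of all 33 enzymes, the untested Ass1 included (rows, by role), in the 18 libraries (columns, by group), coloured by log2(CPM + 1) minus the mean of the DMSO libraries of the same genotype. Most rows are below the DMSO level in all 12 AAI libraries, deepest in fl/fl at 3 weeks, while Arg2 and Pycr1 are above it.

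After 3 weeks of AAI in fl/fl cortex, 28 of the 32 tested enzymes fell and 2, Arg2 and Pycr1, rose. The median log2 change was -1.73, against a shift of 0.45 for the median of all genes. Of all genes, 18.2% were called lower and 58% higher, so the enzymes fell against a background in which most genes rose. Scaling each library by the median of its ratios to a common reference removed that shift and changed the background to 4999 genes lower and 5353 higher, from 2651 and 8466, and quantile normalization gave 5682 lower and 4612 higher. With median-of-ratios scaling 30 enzymes fell and 2 rose, and with quantile normalization 28 fell and 2 rose. The 30 calls were all kept when any single library was left out.

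The fall was not even over the list. The deepest group medians were those of the methylated glycine and betaine enzymes (-3.22), lysine breakdown (-3.08) and transsulfuration (-3.01), and the shallowest were those of glutamate and glutamine enzymes (-0.82) and of glycine cleavage and one-carbon enzymes (-0.88). Glud1 and Gldc did not pass the test in fl/fl cortex at either time. Both were called lower there by edgeR, by DESeq2 and with median-of-ratios scaling.

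In PTKO cortex at 3 weeks, 25 enzymes fell and the same Arg2 and Pycr1 rose, with a median log2 change of -1.13, against 13.9% of all genes lower and 57.2% higher. At 6 weeks 25 fell and 2 rose in fl/fl cortex (median -1.23), against 13.9% and 59.8% of all genes. At 6 weeks in PTKO cortex 19 fell and 3 rose (median -0.70), against 11.4% and 53.7% of all genes. Median-of-ratios scaling changed the background in these comparisons as well, to 4568 lower and 4807 higher in PTKO cortex at 3 weeks, 4746 and 4978 in fl/fl at 6 weeks and 4215 and 4193 in PTKO at 6 weeks. It gave 27, 30 and 27 enzymes lower in the same order, with 2 higher in each. The counts over leave-one-out fits were 25 to 27, 25 to 29 and 19 to 22 enzymes called. Calls among all genes in these fits are not given here.

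Markers of several cell types moved with the enzymes. The 20 S1 and S2 markers summed to 27962 to 40021 CPM in fl/fl and 34340 to 48826 CPM in PTKO cortex at 3 weeks, and 17 and 15 of them were called lower. The 14 S3 markers summed to 923 to 1315 CPM in fl/fl and 2042 to 3405 CPM in PTKO cortex. Over the same libraries 9 macrophage markers rose from 136 to 193 CPM in fl/fl DMSO cortex to 5298 to 8907 CPM in fl/fl and 1796 to 3544 CPM in PTKO AAI cortex. In fl/fl cortex at 3 weeks 5 of 6 thick ascending limb markers were also lower (median -1.43), all 6 fibroblast markers (median 3.31), all 10 tubular injury markers (median 4.60) and 7 of 8 T and B cell markers were higher, and in PTKO cortex 2, 6, 10 and 6 of these changed the same way. The 7 hepatocyte markers lay at 445 to 1283 CPM at 3 weeks and 569 to 806 CPM in fl/fl DMSO cortex, with none at 0. The part of these markers in the results was not tested.

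**Figure D2:**
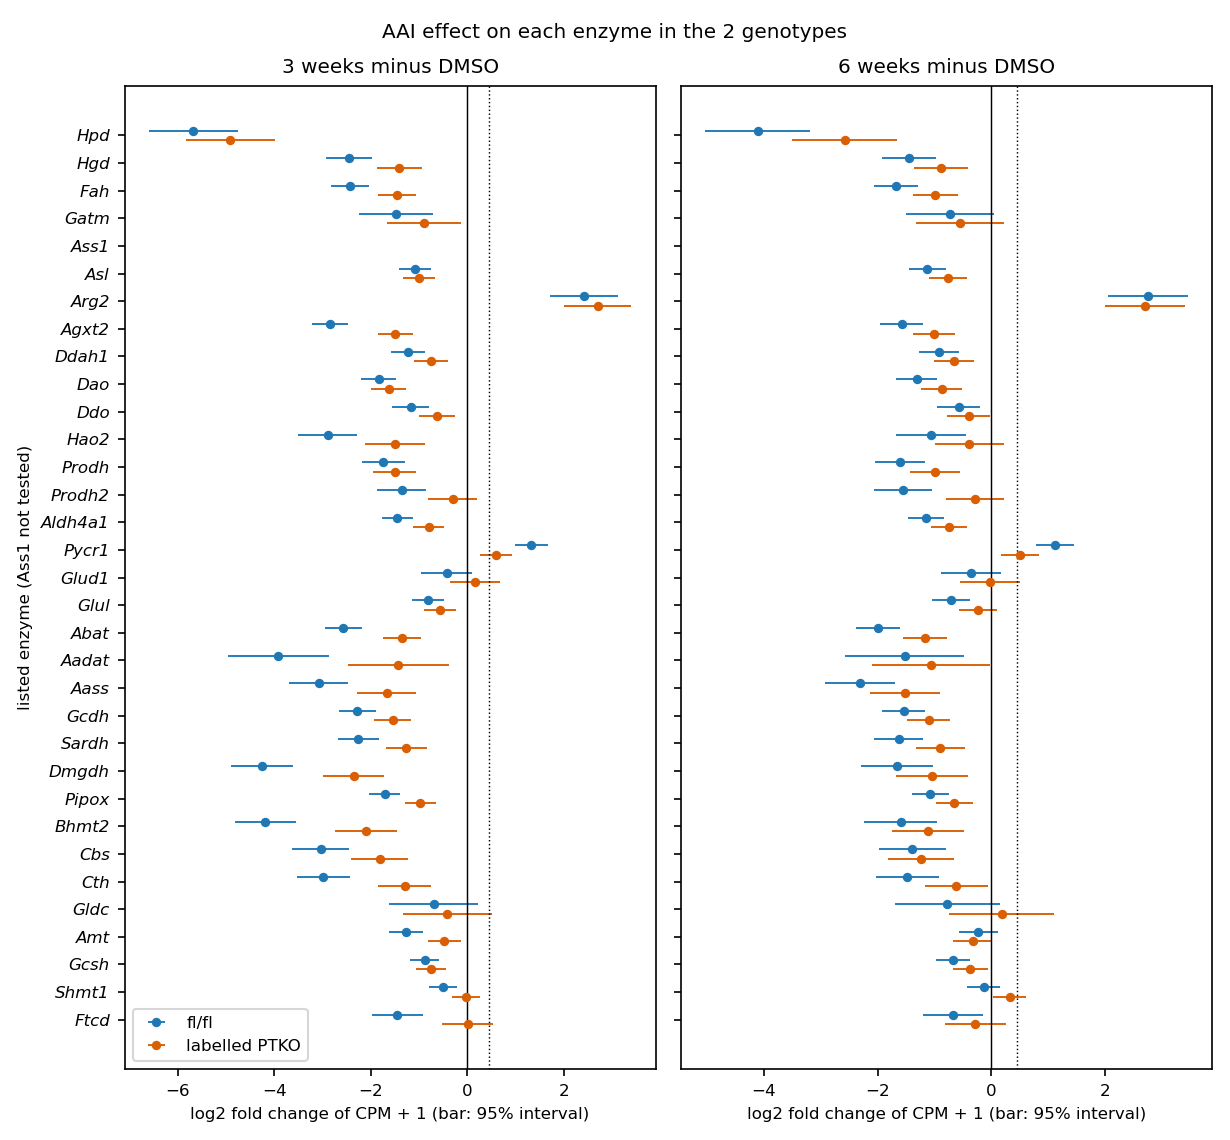
Log2 fold change of each enzyme against DMSO of its own genotype at 3 and 6 weeks, with 95% intervals from limma and a dotted line at the median change of all genes in fl/fl cortex (0.45). At 3 weeks the fl/fl values lie below the PTKO values for most enzymes, with Hpd (-5.67 and -4.91) at the bottom and Arg2 (2.41 and 2.70) at the top.

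Tyrosine breakdown was represented by Hpd (hydroxyphenylpyruvate dioxygenase), Hgd (homogentisate dioxygenase) and Fah (fumarylacetoacetate hydrolase, the last step), and all 3 fell in every AAI comparison. Hpd, which spans chr5:123171807-123182727 on the minus strand (mm10, GENCODE M21), fell furthest of the 32 tested enzymes. It was at 81.6, 82.7 and 54.3 CPM in the fl/fl DMSO libraries 1, 2 and 3 (libraries are given in this order throughout) and at 0.560, 0.281 and 0.436 CPM after 3 weeks of AAI, or 15, 6 and 10 reads. In PTKO cortex it went from 51.7, 69.7 and 34.6 CPM to 0.396, 0.992 and 0.770 CPM. No 3-week library came near a DMSO library, and the 3-week levels were 0.585% and 1.38% of the DMSO means. The log2 changes, which the added 1 CPM makes smaller for a gene this low, were -5.67 (SE 0.44, adjusted p = 1.13e-08) in fl/fl and -4.91 (SE 0.44, adjusted p = 1.05e-07) in PTKO cortex by limma. At 6 weeks Hpd stood at 3.64, 6.40 and 1.16 CPM in fl/fl cortex and at 7.22, 3.47 and 16 CPM in PTKO cortex. Every 6-week library was above every 3-week library of its genotype, and all stayed under the lowest DMSO value. Of all genes tested, 16.6% in fl/fl and 9.8% in PTKO cortex lay wholly above their 3-week libraries at 6 weeks. Between 3 and 6 weeks the log2 change was 1.56 (SE 0.44, adjusted p = 0.0293) in fl/fl and 2.33 (SE 0.44, adjusted p = 0.00562) in PTKO. The fl/fl rise lost its call without the fl/fl 3-week library 2 or 3 or the 6-week library 1 or 2, and with the compared groups alone. Hpd overlaps Psmd9 on the opposite strand, and whether the counting used strand is not given in the sources used here.

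The stretch before the RefSeq start of Hpd is shown because this gene had the deepest fall. It is on the minus strand of GRCm38.p6 at chr5:123182728-123182873, 146 bases with 64.4% G or C, and the capitals mark GGGCGG, the GC box bound by Sp and Krüppel-like factors.
Hpd: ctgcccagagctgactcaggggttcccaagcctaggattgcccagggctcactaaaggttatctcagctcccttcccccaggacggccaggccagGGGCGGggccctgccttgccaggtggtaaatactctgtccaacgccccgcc
GGGCGG on either strand was found in the 300-base windows (250 before the start and 50 after it) of 17 of the 29 enzymes with a RefSeq window, or 58.6%, and in 35.9% of the windows of 27025 genes. A match of letters is a description of the window and not evidence of binding.

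Hgd and Fah fell less. Hgd was at 585, 597 and 544 CPM in fl/fl DMSO cortex and at 139, 101 and 80.5 CPM at 3 weeks, and in PTKO cortex it went from 572, 596 and 574 to 173, 246 and 244 CPM. All 3 PTKO 3-week libraries were above all 3 fl/fl ones, as they were for 14.5% of all genes tested. Fah was at 127, 111 and 86.1 CPM in fl/fl cortex and at 163, 221 and 208 CPM in PTKO cortex at 3 weeks, from DMSO ranges of 566 to 602 and 498 to 580.1 CPM, again without overlap of the AAI groups. The PTKO minus fl/fl difference at 3 weeks was 1.06 (SE 0.22, adjusted p = 0.00832) for Hgd and 0.87 (SE 0.18, adjusted p = 0.00862) for Fah on the log2 scale by limma. Both of these calls were lost without the fl/fl 3-week library 3 and without the PTKO 3-week library 2.

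Arginine and creatine precursor enzymes split by direction. Arg2, the mitochondrial arginase that turns arginine into ornithine and urea, rose, and Asl, Agxt2, Ddah1 and, at 3 weeks, Gatm fell. Arg2 (chr12:79130777-79156301, plus strand) was at 1.51, 2.29 and 4.65 CPM in fl/fl DMSO cortex, 13.5, 25.9 and 17.1 CPM at 3 weeks and 24.4, 27.5 and 18.9 CPM at 6 weeks. In PTKO cortex it was at 4.90, 4.47 and 2.37, then 28.9, 41.3 and 22.4, then 22.7, 27 and 44.5 CPM. In each AAI comparison 55.6% to 63% of all genes tested lay wholly above DMSO. Every AAI library of either genotype was above every DMSO library for Arg2 as well. The log2 changes in limma were 2.41 (SE 0.33, adjusted p = 6.32e-06) and 2.76 (SE 0.33, adjusted p = 2.25e-06) in fl/fl and 2.70 (SE 0.33, adjusted p = 3.01e-06) and 2.71 (SE 0.33, adjusted p = 5.18e-06) in PTKO cortex at 3 and 6 weeks. Arg2 was not called between 6 and 3 weeks: the change was 0.34 (adjusted p = 0.515) in fl/fl and 0.01 (adjusted p = 0.992) in PTKO by limma. It overlaps Vti1b on the opposite strand.

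Gatm, which makes guanidinoacetate, had the highest DMSO level of the list, at 1489, 1532 and 874 CPM in fl/fl cortex and at 1577, 1210.3 and 1771 CPM in PTKO cortex. At 3 weeks it was at 679, 487 and 278 CPM in fl/fl cortex and at 542, 1084 and 898 CPM in PTKO cortex. The fl/fl groups did not overlap, and the spread within each group was wide. The 3-week log2 change was -1.48 (SE 0.36, adjusted p = 0.00154) in fl/fl and -0.89 (SE 0.36, adjusted p = 0.0372) in PTKO cortex by limma, and the PTKO call was lost without PTKO DMSO library 1 or 3, without PTKO 3-week library 1 or 3, with no filter and with quantile normalization. At 6 weeks Gatm did not pass the test in either genotype (-0.72, adjusted p = 0.0824, and -0.55, adjusted p = 0.189, by limma).

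Of the pair that makes arginine from citrulline, Asl (argininosuccinate lyase) fell in all 4 AAI groups, and Ass1 (argininosuccinate synthase) was listed too low to test. Asl was at 257, 282 and 236 CPM in fl/fl DMSO cortex and 158, 109 and 102 CPM at 3 weeks, and its log2 changes ranged from -1.12 to -0.76 over the AAI groups. A limma test called no difference between genotypes at 3 weeks (0.14, 95% interval -0.19 to 0.47) or between 6 and 3 weeks in fl/fl (-0.03, 95% interval -0.37 to 0.30). Ass1 was listed at 1.09, 0.711 and 0.793 CPM in fl/fl DMSO cortex, or 10 to 19 reads over the 6 DMSO libraries, and at 1 to 8 reads in the AAI libraries, which spans the floor of 3 reads used here. No fold is given for it. Whether the authors' counting lost reads of Ass1 was not tested, so its listed level is not taken as its level in the tissue.

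Agxt2, a mitochondrial aminotransferase that acts on dimethylarginines (chr15:10358532-10410153, plus strand), was at 139.6, 147 and 148 CPM in fl/fl DMSO cortex and 25.2, 18.5 and 15.3 CPM at 3 weeks. In PTKO cortex it went from 153, 149.5 and 141 CPM to 44.1, 60.1 and 53.3 CPM. Agxt2 overlaps the protein-coding gene Gm21973 on the same strand. The 3-week groups were well apart from DMSO and from each other. Its 3-week log2 change was -2.85 (SE 0.17, adjusted p = 1.17e-09) in fl/fl, the smallest adjusted p of any enzyme, and -1.49 (SE 0.17, adjusted p = 1.88e-06) in PTKO cortex by limma. It was the single enzyme whose 3-week response differed between genotypes in the limma interaction test, by 1.36 (95% interval 0.84 to 1.88, adjusted p = 0.045). Of all genes, 0.116% were called lower and 0.164% higher in that test. On recovered reads edgeR called 0 enzymes, and DESeq2 called 12 along with 251 genes lower and 307 higher of all genes, and 21 enzymes had an unadjusted p under 0.05 in limma. The Agxt2 call itself was lost in 10 of the 12 fits that left out a library of these groups, where its value ranged from 1.20 to 1.54. At 6 weeks Agxt2 was at 44.1, 52 and 47.6 CPM in fl/fl cortex and at 92, 77.8 and 54.4 CPM in PTKO cortex, above the 3-week level in fl/fl by 1.27 (SE 0.17, adjusted p = 0.000746).

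The sequence before the Agxt2 start is shown for that reason. It lies on the plus strand of GRCm38.p6 at chr15:10358383-10358531, 149 bases with 42.3% G or C. The capitals mark TTTATA, which is TATAAA on the other strand, and CAAAGTCCA, a site of the tubule and liver factor HNF4.
Agxt2: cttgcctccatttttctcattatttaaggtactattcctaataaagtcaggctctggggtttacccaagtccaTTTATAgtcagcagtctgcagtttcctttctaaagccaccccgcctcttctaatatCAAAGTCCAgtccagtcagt
CAAAGTCCA on either strand was in the windows of 3 of 29 enzymes, Agxt2, Aadat and Pipox, and in 0.477% of all windows. TATAAA was in 3 of 29, Agxt2, Ftcd and Hgd, and in 14.2% of all windows. AGGTCA, the nuclear receptor core site, was in 9 of 29 and in 16.0% of all, and GTTAAT, the HNF1 core site, in 3 of 29 (Hao2, Prodh2 and Ftcd) and in 7.20% of all. In the windows of these enzymes, matches of different motifs did not overlap each other.

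Ddah1, which hydrolyses asymmetric dimethylarginine, was at 483, 505 and 453 CPM in fl/fl DMSO cortex, 219, 196 and 199 CPM in fl/fl cortex and at 219.6, 315 and 371 CPM in PTKO cortex at 3 weeks. The PTKO library 1 was level with the highest fl/fl library and the other PTKO libraries were higher. The genotype difference of 0.52 (SE 0.17, adjusted p = 0.0479) by limma was lost under 6 alternatives that kept all libraries, among them median-of-ratios scaling, and in 5 of 6 leave-outs of a 3-week library.

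The peroxisomal oxidases Dao (D-amino acid oxidase), Ddo (D-aspartate oxidase) and Hao2 (a hydroxy acid oxidase) all fell at 3 weeks in both genotypes. In fl/fl cortex Hao2 fell furthest of the 3 and in PTKO cortex Dao did. Hao2 went from 322, 324 and 326 CPM to 31.1, 67.3 and 37.2 CPM in fl/fl and from 244, 392 and 273 to 124, 132 and 69.7 CPM in PTKO cortex. At 6 weeks it had come back to 136, 212 and 129 CPM in fl/fl cortex and to 292, 191 and 209.9 CPM in PTKO cortex, where its top library lay inside the PTKO DMSO range. The 6 minus 3 week change was 1.83 (SE 0.29, adjusted p = 0.00153) in fl/fl and 1.11 (SE 0.29, adjusted p = 0.0245) in PTKO by limma, the latter lost without PTKO 3-week library 3 or 6-week library 1 and with the compared groups alone. Against DMSO, Hao2 remained lower at 6 weeks in fl/fl (-1.06, adjusted p = 0.00364) and did not pass the test in PTKO (-0.38, SE 0.29, adjusted p = 0.252).

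Dao was at 437, 459 and 450.3 CPM in fl/fl DMSO cortex and at 504, 527 and 523 CPM in PTKO DMSO cortex, so the PTKO libraries were the higher ones without AAI. At 3 weeks it fell to 155, 113 and 112 CPM in fl/fl and to 189, 184 and 133 CPM in PTKO cortex, where the genotypes overlapped, and its log2 change was -1.83 and -1.63, against -2.90 and -1.50 for Hao2. At 6 weeks it was at 146, 237 and 168 CPM in fl/fl cortex and at 319.5, 287 and 247 CPM in PTKO cortex. Every PTKO 6-week library was above every fl/fl one, with a limma difference of 0.65 (SE 0.17, adjusted p = 0.0212) that was lost without fl/fl 6-week library 1 or 3 or PTKO 6-week library 1. Ddo changed least, by -1.18 (SE 0.18, adjusted p = 1.69e-05) at 3 weeks and -0.57 (SE 0.18, adjusted p = 0.00859) at 6 weeks in fl/fl and by -0.63 (SE 0.18, adjusted p = 0.00488) at 3 weeks in PTKO cortex; the 6-week fl/fl call was lost without fl/fl 6-week library 1.

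In proline metabolism the oxidising enzymes fell and the synthetic enzyme rose. Prodh is the mitochondrial dehydrogenase that starts proline breakdown, Prodh2 acts on hydroxyproline, and Aldh4a1 is the pyrroline carboxylate dehydrogenase that completes both routes to glutamate or its hydroxylated form. Aldh4a1 was at 686, 671 and 637 CPM in fl/fl DMSO cortex, 282, 221 and 230.2 CPM at 3 weeks and 266, 337 and 304 CPM at 6 weeks. In PTKO cortex it was at 821, 819.8 and 825, then 365, 532 and 539, then 571, 502 and 415 CPM. The AAI libraries of PTKO were all above those of fl/fl at the same time, and the limma differences were 0.95 (SE 0.15, adjusted p = 0.00205) at 3 weeks and 0.71 (SE 0.15, adjusted p = 0.0083) at 6 weeks. The 6-week difference was lost without fl/fl 6-week library 1.

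Prodh went from 305, 302 and 254 CPM in fl/fl DMSO cortex to 112, 81.9 and 67.2 CPM at 3 weeks and 69.1, 113 and 103 CPM at 6 weeks, and was not called between 6 and 3 weeks in fl/fl cortex (0.13, 95% interval -0.31 to 0.57). At 6 weeks it was at 165, 138 and 220.2 CPM in PTKO cortex, above every fl/fl library, with a limma difference of 0.87 (SE 0.21, adjusted p = 0.015), and under DMSO it was at 358, 322 and 344 CPM there, also above every fl/fl library. Prodh2 passed the test in fl/fl and not in PTKO cortex. It went from 80, 60.7 and 60.7 to 34.7, 22 and 21.2 CPM at 3 weeks in fl/fl cortex, and from 59.3, 50.6 and 59.4 to 46, 41.9 and 48.3 CPM in PTKO cortex. Its 3-week log2 changes were -1.36 (SE 0.24, adjusted p = 8.83e-05) in fl/fl and -0.31 (SE 0.24, adjusted p = 0.266) in PTKO by limma, and the interaction between genotype and AAI was 1.05 with an adjusted p of 0.122. The PTKO level was above fl/fl by 0.81 (SE 0.24, adjusted p = 0.0356) at 3 weeks and 1.02 (SE 0.24, adjusted p = 0.0144) at 6 weeks. The first was lost without fl/fl 3-week library 2 or 3, without any one PTKO 3-week library and with no filter, and the second, like the Prodh difference, without fl/fl 6-week library 1. None of the 4 proline enzymes was called between 6 and 3 weeks in either genotype.

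Pycr1, the mitochondrial pyrroline carboxylate reductase that makes proline (chr11:120635712-120643769, minus strand), rose from very low levels. It was at 0.363, 0.152 and 0.106 CPM in fl/fl cortex and at 0.400, 0.337 and 0.323 CPM in PTKO DMSO cortex, or 2 to 8 reads a library. At 3 weeks it was at 1.57, 2.11 and 2.44 CPM in fl/fl cortex and at 0.910, 1.21 and 1.01 CPM in PTKO cortex, and at 6 weeks at 1.69, 1.45 and 1.70 CPM in fl/fl against 1.19, 1.16 and 0.511 CPM in PTKO cortex. Between 55.6% and 63% of all genes tested lay wholly above DMSO in each AAI comparison. For Pycr1 all AAI libraries were above all DMSO libraries, and the fl/fl 3-week libraries were above the PTKO ones. The log2 changes on the log2(CPM + 1) scale were 1.33 (SE 0.16, adjusted p = 1.3e-06) at 3 weeks and 1.12 (SE 0.16, adjusted p = 1.14e-05) at 6 weeks in fl/fl by limma. In PTKO cortex they were 0.59 (SE 0.16, adjusted p = 0.00325) and 0.51 (SE 0.16, adjusted p = 0.0102), and quantile normalization turned both negative, to -0.14 and -0.0907. The 6-week call was lost without PTKO 6-week library 1 and without the 3 libraries that stand apart. The PTKO minus fl/fl difference of -0.56 (SE 0.16, adjusted p = 0.0284) at 3 weeks was the single lower call of the list between genotypes, and it was lost with a pseudocount of 0.1 CPM, quantile normalization, the compared groups alone, edgeR, DESeq2 and 5 of 6 leave-outs.

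The Pycr1 promoter stretch is shown because the gene moved against the rest. It lies on the minus strand of GRCm38.p6 at chr11:120643770-120643898, 129 bases with 57.4% G or C, and the capitals mark a match of TGATGNAA, the composite C/EBP and ATF site.
Pycr1: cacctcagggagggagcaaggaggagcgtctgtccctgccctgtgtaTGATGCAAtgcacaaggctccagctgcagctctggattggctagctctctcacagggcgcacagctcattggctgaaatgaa
Pycr1 was the 1 enzyme of 29 with TGATGNAA on either strand of its window, and 4.06% of all windows held it. Among the other genes of these pathways with a window, Asns, Got1, Hao1 and Sqor had a match, and Aldh18a1, Mthfd2 and Phgdh did not. Whether a match goes with a rise was not tested.

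Another enzyme of proline synthesis, Aldh18a1, also rose, and its change stayed positive in every scaling tried. Aldh18a1 starts the route from glutamate. It went from 3.94, 3.45 and 3.28 CPM in fl/fl DMSO cortex to 28.4, 31.7 and 31.2 CPM at 3 weeks and from 2.70, 2.50 and 2.96 to 26.6, 21.5 and 22.3 CPM in PTKO cortex. Of all genes tested, 60.8% in fl/fl and 59.6% in PTKO cortex lay wholly above DMSO at 3 weeks. For Aldh18a1 the DMSO and AAI groups did not overlap in either genotype. The 3-week limma log2 change was 2.79 (SE 0.16, adjusted p = 5.83e-10) in fl/fl and 2.71 (SE 0.16, adjusted p = 1.62e-09) in PTKO cortex.

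**Figure D3:**
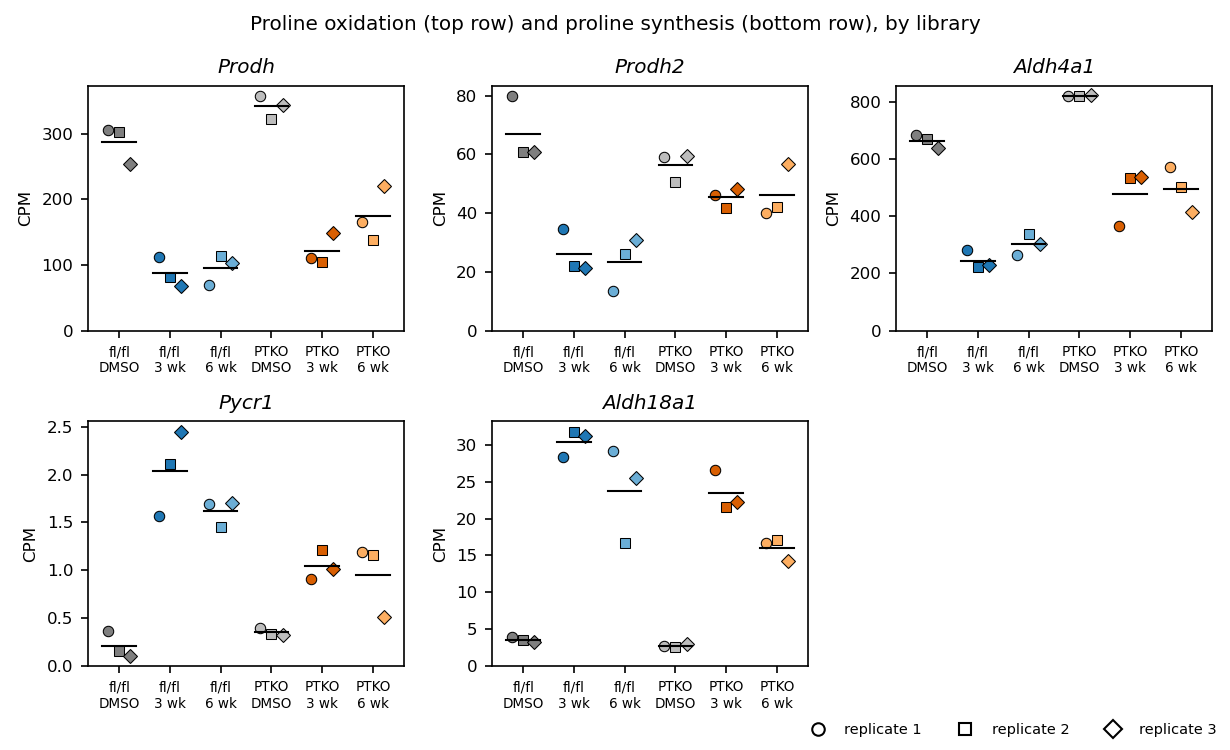
CPM of 3 enzymes of proline and hydroxyproline oxidation (Prodh, Prodh2, Aldh4a1) and 2 of proline synthesis (Pycr1, Aldh18a1), 1 point per library and a bar at each group mean. The oxidising enzymes of fl/fl cortex lie lower in all AAI libraries than in DMSO libraries, and the synthetic enzymes lie higher.

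Among glutamate and glutamine enzymes, Glul (glutamine synthetase) and Abat (GABA transaminase) fell, and Glud1 (glutamate dehydrogenase) did not pass the test against DMSO in any of the 4 AAI groups. Abat was at 828, 815 and 748 CPM in fl/fl DMSO cortex and 158, 140.2 and 107 CPM at 3 weeks, and it went from 755, 752 and 693 to 255, 324 and 282 CPM in PTKO cortex. AAI and DMSO groups were far apart, and the PTKO 3-week libraries were all above the fl/fl ones. Abat fell by 2.57 (SE 0.18, adjusted p = 5.08e-09) in fl/fl on the log2 scale by limma, and the genotype difference at 3 weeks was 1.09 (SE 0.18, adjusted p = 0.0029). At 6 weeks it was at 162, 272 and 178 CPM in fl/fl cortex and at 400.1, 319 and 271 CPM in PTKO cortex. Its rise between 3 and 6 weeks in fl/fl (0.57, adjusted p = 0.0498) was lost in 7 alternatives, among them median-of-ratios scaling and edgeR, and in 4 leave-outs of a library. Glul went from 714, 749.8 and 864 to 527, 411 and 386 CPM in fl/fl cortex at 3 weeks, a change of -0.82 (SE 0.16, adjusted p = 0.00019).

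Glud1 was at 477, 476 and 562 CPM in fl/fl cortex and at 627, 592 and 622 CPM in PTKO DMSO cortex. At 3 weeks it was at 424, 368 and 337 CPM in fl/fl cortex, all below DMSO, and at 416, 687 and 1124 CPM in PTKO cortex, where the third library was the highest of all 18 and the first was below DMSO. The limma changes were -0.43 (SE 0.25, adjusted p = 0.129) and 0.16 (SE 0.25, adjusted p = 0.577), and the genotype difference of 0.87 (SE 0.25, adjusted p = 0.0313) at 3 weeks was lost without fl/fl 3-week library 2 or 3, without PTKO 3-week library 2 or 3 and with the compared groups alone. The PTKO 3-week library 3 was also the highest of its group for Gldc and for 2 genes of ammonia production and glucose synthesis. These 2 were chosen after their values were seen. In PTKO 3-week cortex the glutamine transporter Slc38a3 was at 47, 133 and 271 CPM. Pck1, the phosphoenolpyruvate carboxykinase, was at 403, 2110.4 and 4282 CPM there. In fl/fl 3-week cortex Slc38a3 was at 17.6, 28 and 20.1 CPM and Pck1 at 463, 186 and 209.6 CPM. The 3 PTKO 3-week libraries were in the same order for Glud1, Gldc, Slc38a3 and Pck1. None of the fl/fl 3-week libraries reached the third PTKO 3-week library. As Slc38a3 and Pck1 were picked with their values known, their order and separation only describe these libraries.

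**Figure D4:**
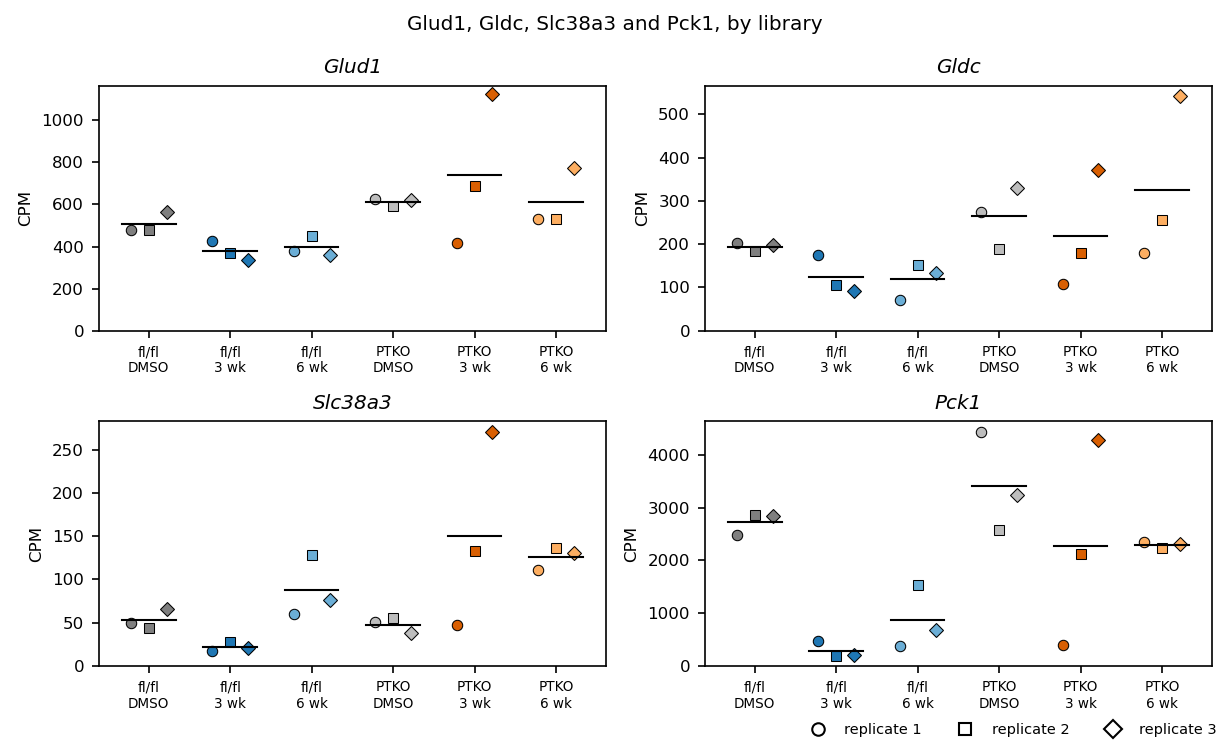
CPM of Glud1, Gldc, Slc38a3 and Pck1 in the 18 libraries, 1 point per library with a bar at each group mean. Slc38a3 and Pck1 were chosen after their values were seen. In PTKO cortex at 3 weeks the third library is the highest of its group for each gene, with Glud1 at 1124 CPM against 416 and 687 CPM in the others.

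The 3 enzymes of lysine breakdown fell steeply in fl/fl cortex at 3 weeks. Aass carries out the first steps, Aadat transaminates aminoadipate and Gcdh oxidises glutaryl-CoA. Aadat was at 640.2, 615 and 705 CPM in fl/fl DMSO cortex and 24.4, 73.9 and 41.4 CPM at 3 weeks, and it went from 649.9, 645 and 305 to 218, 316 and 93.7 CPM in PTKO cortex. The fl/fl 3-week libraries were all below the PTKO ones, and the PTKO AAI libraries overlapped the lowest PTKO DMSO library. The limma log2 change was -3.92 (SE 0.49, adjusted p = 2.38e-06) in fl/fl and -1.43 (SE 0.49, adjusted p = 0.0164) in PTKO cortex, and the genotype difference was 2.12 (SE 0.49, adjusted p = 0.0132), the largest of the list. The PTKO call was lost without PTKO DMSO library 1 or 2 or PTKO 3-week library 3, and the genotype difference without fl/fl 3-week library 3 or PTKO 3-week library 2. At 6 weeks Aadat was at 217, 397 and 134 CPM in fl/fl cortex, a rise of 2.39 (SE 0.49, adjusted p = 0.00659) from 3 weeks that was lost without the 3 libraries that stand apart.

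Aass went from 732, 815 and 739.6 CPM to 139.5, 83.9 and 60.6 CPM in fl/fl and from 785, 725 and 782 to 159.9, 264 and 326 CPM in PTKO cortex. The 3-week genotypes did not overlap, and the difference of 1.41 (SE 0.29, adjusted p = 0.0076) by limma was lost without fl/fl 3-week library 3. Gcdh fell by 2.28 (SE 0.18) in fl/fl and by 1.54 (SE 0.18) in PTKO cortex at 3 weeks, with a genotype difference of 0.77 (SE 0.18, adjusted p = 0.0128) that was lost without fl/fl 3-week library 3 or PTKO 3-week library 2. Of the neighbouring steps, Dhtkd1, of aminoadipate oxidation, changed by -3.26 (SE 0.22, adjusted p = 3.26e-09), Hykk, a hydroxylysine kinase, by -3.71 (SE 0.31, adjusted p = 2.66e-08) and Aldh7a1, the aminoadipate semialdehyde dehydrogenase, by -1.64 (SE 0.14, adjusted p = 4.17e-08) in fl/fl cortex at 3 weeks by limma.

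Dmgdh and Bhmt2 stood out among the methylated glycine and betaine enzymes. Dmgdh is the mitochondrial dimethylglycine dehydrogenase and Bhmt2 a homocysteine methyltransferase, and the genes are neighbours, at chr13:93674433-93752833 on the plus and chr13:93655720-93674302 on the minus strand. Dmgdh was at 155, 178 and 180.1 CPM in fl/fl DMSO cortex, 7.35, 12.5 and 5.50 CPM at 3 weeks and 43.1, 91.8 and 38 CPM at 6 weeks. Bhmt2 was at 151, 147 and 152, then 5.30, 12.3 and 5.85, then 38.7, 86.2 and 35 CPM. Both fell far below DMSO and came back in part, and library 2 was the highest at 3 and at 6 weeks for both genes. The 3-week log2 changes were -4.25 (SE 0.30, adjusted p = 4.52e-09) and -4.18 (SE 0.30, adjusted p = 5.37e-09) by limma, and the 6 minus 3 week changes were 2.59 (adjusted p = 0.000264) and 2.59 (adjusted p = 0.000264), the smallest adjusted p values of that comparison in the list.

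In PTKO cortex Dmgdh went from 169.7, 183 and 153 CPM to 24.2, 40.6 and 33.5 and then 106, 78 and 65.3 CPM. Bhmt2 went from 156, 162 and 134 to 26.2, 40.3 and 38.4 and then 83.4, 66.9 and 58.5 CPM. Every PTKO 3-week library was above every fl/fl 3-week library, and the differences were 1.88 (SE 0.30, adjusted p = 0.00227) and 2.09 (SE 0.30, adjusted p = 0.00158) by limma. The 3-week interactions were 1.90 and 2.08, with adjusted p of 0.0567 and 0.0506. The rise of Dmgdh between 3 and 6 weeks in PTKO cortex, 1.32 (SE 0.30, adjusted p = 0.0131), was lost without PTKO 3-week library 1 or 6-week library 1, and that of Bhmt2, 0.98 (SE 0.30, adjusted p = 0.0458), without any one library of these groups, with median-of-ratios scaling and with edgeR.

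The ratio of Dmgdh to Bhmt2 CPM, not corrected for length, stayed within 0.873 to 1.39 in the 18 libraries (median 1.10), while Dmgdh itself ranged from 5.50 to 183 CPM. The libraries with the lowest levels still held 126 reads of Dmgdh or 134 of Bhmt2. The ratio is a description of genes that share libraries and depth. Bhmt, the betaine homocysteine methyltransferase next to them, did not exceed 1.03 CPM. The RefSeq starts of Dmgdh and Bhmt2 are 133 bases apart on opposite strands, and the stretch between them is shown because both genes start from it. It is given on the plus strand of GRCm38.p6 at chr13:93674303-93674432, 130 bases with 70.8% G or C, and the capitals mark CCGCCC, which is GGGCGG on the other strand.
Dmgdh and Bhmt2: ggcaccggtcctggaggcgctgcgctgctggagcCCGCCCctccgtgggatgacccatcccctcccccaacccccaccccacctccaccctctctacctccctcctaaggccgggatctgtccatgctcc

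**Figure D5:**
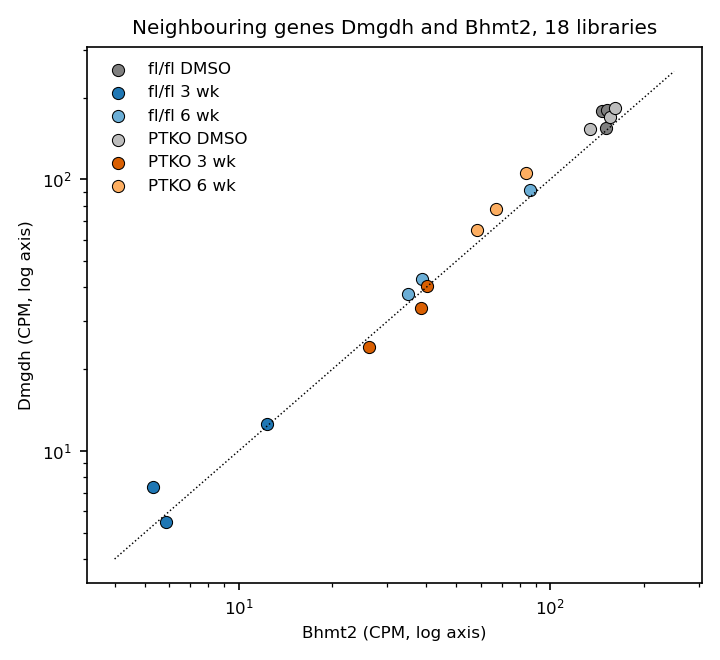
Dmgdh (vertical) against Bhmt2 (horizontal) in CPM on log axes, 1 point per library coloured by group, with a dotted line where they are equal. The 18 libraries follow the line from 5.50 CPM of Dmgdh in fl/fl cortex at 3 weeks to 183 CPM in DMSO cortex.

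Sardh, the mitochondrial sarcosine dehydrogenase, and Pipox, the peroxisomal sarcosine and pipecolate oxidase, fell less. Sardh was at 556, 687 and 651 CPM in fl/fl DMSO cortex and 145, 129 and 119 CPM at 3 weeks, and Pipox went from 583, 620.3 and 543 to 220.4, 158 and 157 CPM. The log2 changes in fl/fl were -2.26 (SE 0.20, adjusted p = 5.28e-08) and -1.72 (SE 0.15, adjusted p = 5.36e-08) by limma. Gnmt, which makes sarcosine from glycine, changed by -3.06 (SE 0.26, adjusted p = 3.34e-08).

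The transsulfuration enzymes Cbs (cystathionine beta-synthase) and Cth (cystathionine gamma-lyase), which make cysteine from homocysteine, fell together. Cbs was at 274, 289 and 257 CPM in fl/fl DMSO cortex and 33.9, 39.6 and 25.1 CPM at 3 weeks, and in PTKO cortex it went from 323, 359 and 298 to 93.2, 114 and 72.3 CPM. Cth went from 189, 187 and 178 to 22.8, 31.6 and 15.7 CPM in fl/fl cortex and from 177, 202 and 136 to 53.6, 85.6 and 69.5 CPM in PTKO cortex. No AAI library overlapped a DMSO library at 3 weeks, and the PTKO 3-week libraries were above the fl/fl ones for both genes. The PTKO minus fl/fl differences at 3 weeks were 1.48 (SE 0.28, adjusted p = 0.00499) for Cbs and 1.56 (SE 0.26, adjusted p = 0.0029) for Cth by limma, and both calls were kept when any single library was left out. In fl/fl cortex both rose again between 3 and 6 weeks, by 1.65 (SE 0.28, adjusted p = 0.00223) and 1.50 (SE 0.26, adjusted p = 0.00275). At 6 weeks Cbs was at 89.6, 171 and 72.6 CPM and Cth at 55.8, 106 and 48.1 CPM there. In PTKO cortex at 6 weeks Cth was lower than DMSO by a small margin (-0.62, adjusted p = 0.0488), a call lost without PTKO DMSO library 1 or 2 or any one PTKO 6-week library. Csad, of taurine synthesis, changed by -2.63 (SE 0.27, adjusted p = 3.11e-07) in fl/fl cortex at 3 weeks.

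Of the glycine cleavage and one-carbon enzymes, Amt, Gcsh, Shmt1 and Ftcd fell in fl/fl cortex at 3 weeks, and Gldc did not pass the test. Gldc, Amt and Gcsh are the P, T and H proteins of the glycine cleavage system, Shmt1 is the cytosolic serine hydroxymethyltransferase and Ftcd takes the one-carbon unit from histidine breakdown. Gldc was at 202, 183 and 198 CPM in fl/fl DMSO cortex, 176, 106 and 91.3 CPM at 3 weeks and 71.1, 152 and 134 CPM at 6 weeks. In PTKO cortex it was at 274, 189 and 329, then 108, 179 and 370.5, then 179, 257 and 542 CPM, with the third library the highest of each group. The 6-week PTKO minus fl/fl difference of 1.36 (SE 0.43, adjusted p = 0.0453) by limma was lost under 5 alternatives that kept all libraries and in 4 leave-outs.

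Amt was at 52.4, 49.1 and 59.1 CPM in fl/fl DMSO cortex, 22.6, 22.5 and 19.9 CPM at 3 weeks and 36.8, 61.4 and 41.5 CPM at 6 weeks. Its fl/fl 3-week libraries were below all others, and the 6-week libraries overlapped DMSO. The PTKO minus fl/fl difference at 3 weeks was 0.93 (SE 0.16, adjusted p = 0.00381) and the fl/fl 6 minus 3 week change 1.04 (SE 0.16, adjusted p = 0.00156) by limma. Gcsh was at 34.5, 32.4 and 28.6 CPM in fl/fl cortex and at 41.9, 57 and 47 CPM in PTKO cortex at 3 weeks and at 6 weeks at 31.1, 48.4 and 33.2 CPM in fl/fl against 66.6, 62.6 and 60.4 CPM in PTKO cortex. The PTKO libraries were the higher ones at both times, by 0.59 (SE 0.14, adjusted p = 0.0157) and 0.76 (SE 0.14, adjusted p = 0.00471), the 3-week call being lost without fl/fl 3-week library 3 or PTKO 3-week library 2. They were also higher under DMSO (74, 80.1 and 92.6 against 57.3, 61.7 and 59.2 CPM, adjusted p = 0.392).

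Shmt1 was at 43.6, 46.2 and 52.4 CPM in fl/fl DMSO cortex, 32.8, 35.4 and 30.7 CPM at 3 weeks and 42.2, 44.3 and 42.6 CPM at 6 weeks. In PTKO cortex it was at 49.3, 47 and 47.4, then 41.6, 50 and 49.7, then 51.9, 51.6 and 81.3 CPM. The third PTKO library at 6 weeks was the highest of all. Its PTKO change at 6 weeks, 0.32 (SE 0.14, adjusted p = 0.0477) by limma, turned negative with median-of-ratios scaling (-0.0657), edgeR (-0.00727) and DESeq2 (-0.0377), and the call was lost with no filter and without any one PTKO DMSO library or PTKO 6-week library 3. Ftcd was at 15.8, 8.54 and 9.09 CPM in fl/fl DMSO cortex and 4.33, 2.30 and 3.49 CPM at 3 weeks, and in PTKO cortex it went from 6.34, 10.2 and 6.57 to 7.16, 8.38 and 7.25 CPM. Its change was -1.45 (SE 0.25, adjusted p = 6.57e-05) in fl/fl and 0.00 (SE 0.25, adjusted p = 0.987) in PTKO cortex, and quantile normalization made the PTKO change -0.84.

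Set between genotypes at 3 weeks, 22 of the 32 enzymes were higher in PTKO cortex and 1, Pycr1, was lower, against 6.22% of all genes higher and 8% lower. With edgeR 1128 genes were higher and 836 lower in place of 908 and 1169. The median difference of the enzymes was 0.83 on the log2 scale, and that of all genes -0.04. Relative to the DMSO mean of the same genotype, the median enzyme stood at 38.4%, 26.2% and 24.2% in the fl/fl libraries and at 40.9%, 52.5% and 51.0% in the PTKO libraries. The PTKO library 1 and the fl/fl library 1 were close. Leave-one-out fits called 8 to 24 enzymes, with 8 without fl/fl 3-week library 3 and 10 without PTKO 3-week library 2. Calls among all genes in these fits are not given here. The 8 calls kept without any single library were those of Abat, Agxt2, Aldh4a1, Amt, Bhmt2, Cbs, Cth and Dmgdh. The S1 and S2 markers (13 of 20 higher, median 0.79) and the S3 markers (9 of 14 higher, median 1.67) were also higher in PTKO cortex at 3 weeks, 8 of 9 macrophage markers were lower (median -1.33), and their part in the result was not tested.

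At 6 weeks 10 enzymes were higher in PTKO cortex and 0 lower, against 3.27% of all genes higher and 11.8% lower. They were Abat, Agxt2, Aldh4a1, Dao, Fah, Gcsh, Gldc, Prodh, Prodh2 and Shmt1. For genes as a whole, median-of-ratios scaling gave 811 higher and 907 lower in place of 477 and 1721. The median enzyme stood at 34.9%, 57.3% and 42.7% of DMSO in fl/fl libraries and at 67.4%, 59.9% and 57.3% in PTKO libraries, with the fl/fl library 2 level with the lowest PTKO one. The count was 1 without fl/fl 6-week library 1, 4 without its library 3, 20 without its library 2, and 6 without PTKO 6-week library 1. It was 0 when the 6-week groups were fitted alone, and 17 without the 3 libraries that stand apart. Of the S1 and S2 markers, 7 of 20 were higher in PTKO cortex (median 0.56), and of the S3 markers 0 of 14. Lower in PTKO cortex were 5 of 6 fibroblast (median -1.52), 4 of 9 macrophage and 3 of 6 podocyte markers, whose part was not tested.

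Between 3 and 6 weeks 15 enzymes rose and 0 fell in fl/fl cortex, against 7.16% of all genes higher and 6.07% lower. Tyrosine breakdown (3 of 3), transsulfuration (2 of 2), the methylated glycine and betaine enzymes (3 of 4), lysine breakdown (2 of 3) and the peroxisomal oxidases (2 of 3) had the largest shares, and 0 of 4 proline enzymes were among them. Median-of-ratios scaling gave 840 genes higher and 1076 lower in place of 1046 and 886. The S3 markers rose in the same comparison (11 of 14, median 2.32), as did thick ascending limb markers (5 of 6, median 1.22), and their part was not tested. In PTKO cortex 5 enzymes rose and 0 fell, against 2.92% of all genes higher and 8.26% lower: Hpd, Hao2, Dao, Dmgdh and Bhmt2. The same scaling gave 535 genes higher and 854 lower in place of 426 and 1207. Of the S3 markers, 0 of 14 were called there (median 0.64), while 4 of 6 thick ascending limb markers rose and 4 of 6 fibroblast markers fell. The fl/fl count was 8 without fl/fl 3-week library 3 or 6-week library 2 and 7 without the 3 libraries that stand apart. As the fl/fl 6-week library 2 was the least changed of its group, leaving it out favoured lower fl/fl counts. The PTKO count was 1 without 6-week library 1, 2 without 3-week library 3 and 3 without 3-week library 1. Calls among all genes in these fits are not given here.

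The test of whether the 3 to 6 week change differed between genotypes called 0 enzymes in limma, and 0% of all genes in either direction. There 8 enzymes had an unadjusted p under 0.05, the smallest adjusted p was 0.293, and edgeR and DESeq2 called 0. The interaction at 6 weeks also called 0 enzymes, against 0.0411% of all genes lower and 0.0274% higher, with 10 at an unadjusted p under 0.05, a smallest adjusted p of 0.173 and 0 calls by edgeR and DESeq2. At 3 weeks 31 of the 32 interaction values were positive, with a median of 0.75 against -0.02 over all genes, and Agxt2 alone passed the test. For the other enzymes a difference in response did not pass the test.

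Among 80 other listed genes of the same pathways, 79 were found in the table and 67 could be tested. Of all genes tested at 3 weeks, 18.2% were called lower and 58% higher in fl/fl and 13.9% and 57.2% in PTKO cortex. At that time 41 of the 67 fell and 17 rose in fl/fl cortex, and 38 fell and 16 rose in PTKO cortex. With median-of-ratios scaling 47 fell and 10 rose in fl/fl, and 44 fell and 11 rose in PTKO cortex. The background under that scaling is given above with the listed enzymes. The 12 genes that did not pass the filter were Tat, Otc, Cps1, Hao1, Gls2, Gad1, Bhmt, Mat1a, Tdh, Agxt, Sds and Hal. Several of them are known from liver. In fl/fl DMSO cortex Cps1 was at 7.93, 0.965 and 0 CPM and Mat1a at 3.69, 0.356 and 0 CPM. Tat was at 2.36, 0.508 and 0 CPM and Otc at 1.03, 0 and 0 CPM, each highest in library 1. The 7 hepatocyte markers summed to 569, 587 and 806 CPM there, lowest in library 1. In fl/fl 3-week cortex their sum was 1271, 456 and 445 CPM, highest in library 1. There Cps1 was at 1.08, 0.0469 and 0 CPM, Mat1a at 0.448, 0.0469 and 0 CPM and Tat at 0.709, 0.0469 and 0.305 CPM, also highest in library 1. The source of these reads was not tested. Gstz1 lies between Hgd and Fah in the tyrosine route. In fl/fl cortex at 3 weeks it fell by 2.44 (adjusted p = 1.75e-09) on the log2 scale by limma. Shmt2 and Ahcy, of serine and methionine cycles, fell by 2.08 and 2.08.

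The risers included some enzymes of serine, asparagine and mitochondrial one-carbon synthesis. Those of Asns, Mthfd2 and Phgdh stayed positive in every scaling tried. Other enzymes of these routes did not rise in the same way. Shmt2, which also acts in the mitochondrial one-carbon route, fell in fl/fl cortex at 3 weeks, from a mean of 328 to 76.6 CPM. Psph, of serine synthesis, changed by 0.31 there in the main fit. Its change was negative, from -0.364 to -0.126, when edgeR, DESeq2 or another scaling was used. Asns, the asparagine synthetase, went from 4.48, 4.17 and 3.65 CPM in fl/fl DMSO cortex to 19.7, 22.4 and 19 CPM at 3 weeks and from 4.30, 4.23 and 2.75 to 17.2, 20.6 and 16.6 CPM in PTKO cortex. Mthfd2, of the mitochondrial folate route, went from 1.63, 1.88 and 2.96 to 18.9, 17.6 and 20.9 CPM and Phgdh, which starts serine synthesis, from 3.51, 2.79 and 2.80 to 11.6, 11.1 and 15.2 CPM in fl/fl cortex. At 3 weeks 60.8% of all genes tested lay wholly above DMSO in fl/fl and 59.6% in PTKO cortex. DMSO and AAI groups did not overlap for Asns, Mthfd2 or Phgdh either. The log2 changes in fl/fl cortex were 2.07 (SE 0.14, adjusted p = 2.92e-09), 2.69 (SE 0.15, adjusted p = 5.63e-10) and 1.75 (SE 0.16, adjusted p = 7.6e-08) by limma, and those of PTKO cortex were 2.02, 1.88 and 1.71.

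Arg1, the cytosolic arginase, differed from Arg2. It was at 1.76, 0.356 and 0.0528 CPM in fl/fl DMSO cortex and 26.2, 46.9 and 36.1 CPM at 3 weeks, and at 6.97, 0.478 and 0.770 CPM in PTKO 3-week cortex. Each fl/fl 3-week library was above every PTKO one, with a PTKO minus fl/fl difference of -3.73 (SE 0.55, adjusted p = 0.0017) by limma. Arg1 is made by macrophages as well as by liver, and the 9 macrophage markers summed to 5298 to 8907 CPM in the fl/fl and 1796 to 3544 CPM in the PTKO libraries at that time; their part in the Arg1 and Arg2 values was not tested.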

How the data were processed

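RNA of 18 kidney cortex libraries (stranded total RNA kit, per the labels' protocols) was processed by the authors with bcl2fastq 2.19 and kallisto against mm10, per the submitters' processing notes; the strand setting is not given in the sources used here. The deposited table holds CPM (counts scaled to the library total) for 24062 genes. All columns belong to these samples (0 columns of other samples). Whole reads were recovered from the CPM steps: 100% of 433116 values were within 0.01 read of a whole number. Totals were 11722625 to 27213219 reads, so 3 reads, used as a floor, are 0.110 to 0.256 CPM.

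The 14604 genes that reached 1 CPM in 3 or more libraries were fitted with limma 3.58.1 (R 4.3.3, trended variance) on log2(CPM + 1), with 6 group means and 12 residual degrees of freedom; 12 comparisons were each adjusted by Benjamini-Hochberg and called at 0.05. On this scale a fold change understates the change of low genes. Fits were tested on simulated data. Exact permutation of 3 against 3 libraries cannot go below p = 0.1 and was not used. Alternatives were edgeR 4.0.16 and DESeq2 1.42.0 on recovered reads, other scalings, pseudocounts and filters, the compared groups alone, a replicate block and leaving out libraries.

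The enzymes and lists were chosen with earlier results of these data known. Library values are given, by rule, for the most abundant and the most changed enzyme of each role, for those changed against the majority and for those called between genotypes or times; other pathway genes, for the smallest adjusted p of a role and for those higher in both genotypes. Genes and overlaps are from GENCODE M21 (mm10). In it 10 enzymes overlap a gene on the opposite strand (Hpd, Hgd, Arg2, Prodh, Glul, Gcdh, Sardh, Dmgdh, Gldc and Shmt1). On the same strand 6 do (Hpd, Agxt2, Ddah1, Aldh4a1, Glul and Cth). The same-strand genes of Agxt2 (Gm21973) and Aldh4a1 (Gm21969) include a protein-coding one. Promoter windows are from RefSeq (GRCm38.p6); 29 of 33 matched by symbol, all but Asl, Arg2, Abat and Cth, and printed stretches stop at the annotated gene.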

Additional observations from a re-analysis of the deposited data

Results flagged for a closer look

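Agxt2 was the 1 enzyme whose response to 3 weeks of AAI differed between the genotypes in the limma interaction test. Its level fell to 25.2, 18.5 and 15.3 CPM from 145 ± 4.73 CPM (SD, n = 3) in fl/fl cortex and to 44.1, 60.1 and 53.3 CPM from 148 ± 6.22 CPM in PTKO cortex, a difference of 1.36 on the log2 scale (SE 0.25, adjusted p = 0.045). The adjusted p ranged from 0.00053 to 0.138 over the alternatives. The S1 and S2 proximal tubule markers were higher in PTKO than in fl/fl cortex in the same libraries (13 of 20 called), and their part in the difference was not tested.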

How the results depend on the processing

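No enzyme that was called in fl/fl cortex at 3 weeks lost its call or changed direction in any leave-one-out fit. With the compared groups fitted alone, the enzymes called between genotypes at 6 weeks numbered 0 (main 10), those between 6 and 3 weeks 8 in fl/fl (main 15) and 3 in PTKO (main 5), and the 3-week interactions 13 (main 1). The calls among all genes moved with them: 113 lower and 50 higher between genotypes at 6 weeks (main 1721 and 477), 250 and 312 between 6 and 3 weeks in fl/fl (main 886 and 1046), 286 and 81 in PTKO (main 1207 and 426), and 227 and 354 3-week interactions (main 17 and 24). The 3-week interactions numbered 12 by DESeq2 (251 genes lower and 307 higher), 0 by edgeR, 0 without a filter, 0 without a variance trend, 2 with a 5 CPM filter, 2 with a pseudocount of 0.1 CPM, 3 with quantile normalization and 5 with the replicate block. Leaving out the 3 libraries that stand apart was an alternative chosen after seeing the data. The counts were then 17 between genotypes at 6 weeks, 7 between 6 and 3 weeks in fl/fl, 7 interactions at 3 weeks (95 genes lower and 153 higher) and 1 at 6 weeks (main 0). The fl/fl 6-week library 2 among them was the least changed of its group. The choice itself therefore favoured more calls between genotypes at 6 weeks. The PTKO 6-week library 3, described above, was kept in these fits. Leaving out 1 library gave 8 to 24 calls between genotypes at 3 weeks and 1 to 20 at 6 weeks. It gave 8 to 17 between 6 and 3 weeks in fl/fl and 1 to 5 in PTKO, and 0 to 9 and 0 to 2 interactions at 3 and 6 weeks. Where no counts of all genes stand beside a count in this section, it describes the enzymes alone. Whether calls among all genes moved alike is not shown for it. The direction reversed for Pycr1 in PTKO cortex with quantile normalization (-0.14 at 3 and -0.0907 at 6 weeks), for Ftcd in PTKO cortex at 3 weeks with the same (-0.84), and for Shmt1 in PTKO cortex at 6 weeks with median-of-ratios scaling (-0.0657), edgeR (-0.00727) and DESeq2 (-0.0377); the cause was not tested. Same-numbered libraries did not vary together (10 of 45 pairs with r over 0.1, median r 0.0082, and 5 of 18 libraries closest to their own number), so the numbers were not taken as pairs. Few reads limit Ass1, Pycr1 under DMSO and Hpd after AAI.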
